A study of Mus musculus with 16 samples.

Results

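Migratory mature dendritic cells (DCs) were described in CD45+ cells sorted from irradiated and untreated mouse tumors and profiled by droplet single-cell RNA sequencing. A cell barcode was taken as a mature DC on its counts of unique molecular identifiers (UMIs): at least 1 UMI of Fscn1, at least 2 UMIs of Ccr7, Il12b and Ccl22 together, at least 5 UMIs of Cst3, and none of the T cell genes Cd3d and Cd3e or the B cell gene Cd79a. Barcodes with under 500 genes or over 10% mitochondrial UMIs were left out first, and a barcode string found in several libraries of a tumor line was kept only where its UMIs were highest. This left 80 mature DCs among 16350 retained barcodes, of 28678 barcodes in the deposited matrices. The cells were thus chosen by their measured UMIs of Fscn1, Ccr7, Il12b, Ccl22 and Cst3, and the levels of these genes are a description.

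The study asked how radiation therapy changes the maturation and migration of conventional DCs (cDCs) in a tumor line that responds immunologically to radiation, MC38, and in one that responds poorly, Panc02-SIY. MC38 derives from a mouse colorectal carcinoma. Panc02-SIY derives from a pancreatic adenocarcinoma and carries the model antigen SIY. The hosts in every group were C57BL/6J mice, 6 to 8 wk old by the study's methods, bearing a subcutaneous flank tumor of about 5 mm. The 4 groups were untreated (NT) MC38, MC38 taken 24 h after a single 12 Gy dose (RT), NT Panc02-SIY and RT Panc02-SIY, with 4 libraries each and 3240877 to 43776342 UMIs per library. The design text gives 4 animals per group and the methods give 3, and neither ties a library to an animal. Each library was taken as 1 mouse, and p-values measure only the spread between libraries.

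DCs sample antigen in tissues and, after a maturation signal, leave for the draining lymph node. CCR7 is the receptor that follows the lymph node chemokines, and fascin, encoded by Fscn1, bundles actin in the dendrites of mature DCs. Mature DCs are known to lower antigen uptake, to carry costimulatory ligands such as CD40, CD80 and CD86 together with PD-L1 and PD-L2, and to use NF-kB factors, RelB among them. Il12b encodes the p40 subunit shared by IL-12 and IL-23, and Ccl22 encodes a ligand of CCR4, a receptor of regulatory and other helper T cells.

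The label was checked against DC markers. Over the 62 members from Panc02-SIY tumors, Flt3, the cytokine receptor of the DC lineage, was at 238 CPM (UMIs of the gene per 1000000 UMIs summed over members) and Zbtb46, a cDC transcription factor, was at 91.4 CPM. In T cell barcodes of the same tumors, Flt3 was at 1.64 CPM and Zbtb46 at 1.99 CPM. The 18 members from MC38 tumors held 109 CPM of Flt3 and 41.8 CPM of Zbtb46, against 0 and 0.56 CPM in T cell barcodes. Members were deeper than T cells, with a median of 18110 (MC38) and 12329 (Panc02-SIY) UMIs against 10367.5 and 7450.5. The gate excludes T cells, which serve here as background only. Macrophages were not compared, so these pooled levels do not set members apart from them.

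The label did not hold for 3 of the MC38 members. These 3 barcodes, from NT replicate 3 and RT replicates 1 and 2, had 1 to 3 Fscn1 UMIs, no Ccr7 or Ccl22 UMI, and no Flt3 or Zbtb46 UMI, and they entered the gate on Il12b. They held 149 to 332 UMIs of the lysozyme gene Lyz2 and 564 to 938 UMIs of the apolipoprotein gene Apoe. C1q genes, which encode the complement component of tissue macrophages, made up 0.908% to 2.16% of their UMIs. A further 3 members, all from NT Panc02-SIY tumors, were over 0.2% C1q but had at most 2 Lyz2 UMIs. Of these, a member of 4992 UMIs in replicate 4 had 1 Fscn1, 2 Ccr7 and 1 Ccl22 UMIs. It had no Flt3 or Zbtb46 UMI, so its label rests on few UMIs. Results were also computed with all 6 left out (the C1q limit, chosen after these values were seen).

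MC38 libraries also shared barcode strings. Of 7360 MC38 barcodes that passed the filter there were 1596 distinct strings, of which 1005 were found in several libraries and 613 in all 8. Panc02-SIY had 14754 distinct strings among 14945 barcodes, with 63 in several libraries. The string of 11 of the 18 MC38 members also passed in another library, against 1 of 62 Panc02-SIY members. Before the rule on shared strings the gate held 29 MC38 and 63 Panc02-SIY barcodes. Tumor line and sharing go together, so a difference between the tumor lines cannot be told apart from it.

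Promoter sequences were read for the gate genes, since these genes define the cells and NF-kB genes were at high levels in the same cells. The table of RefSeq promoters (250 bases before to 50 bases after the gene start, GRCm38.p6) matched 3 of the 4 genes Fscn1, Ccr7, Il12b and Ccl22. A loose kappaB motif, GGG and CC with any 5 bases between them, was searched on both strands, and its matches are in capitals.
Fscn1, GRCm38.p6 chr5:142960105-142960404, plus strand: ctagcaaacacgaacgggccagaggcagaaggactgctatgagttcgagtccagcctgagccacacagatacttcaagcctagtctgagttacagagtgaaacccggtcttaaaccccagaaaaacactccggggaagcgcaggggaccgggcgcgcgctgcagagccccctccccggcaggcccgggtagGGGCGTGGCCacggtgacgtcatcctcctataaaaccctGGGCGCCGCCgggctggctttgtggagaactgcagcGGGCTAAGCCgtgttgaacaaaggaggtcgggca
Il12b, GRCm38.p6 chr11:44399813-44400112, plus strand: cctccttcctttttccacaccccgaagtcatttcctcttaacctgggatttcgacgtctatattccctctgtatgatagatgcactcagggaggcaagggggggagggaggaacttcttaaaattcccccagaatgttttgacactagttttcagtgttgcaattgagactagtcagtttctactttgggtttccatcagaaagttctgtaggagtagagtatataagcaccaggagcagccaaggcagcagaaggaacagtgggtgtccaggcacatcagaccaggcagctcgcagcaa
Ccl22, GRCm38.p6 chr8:94745434-94745733, plus strand: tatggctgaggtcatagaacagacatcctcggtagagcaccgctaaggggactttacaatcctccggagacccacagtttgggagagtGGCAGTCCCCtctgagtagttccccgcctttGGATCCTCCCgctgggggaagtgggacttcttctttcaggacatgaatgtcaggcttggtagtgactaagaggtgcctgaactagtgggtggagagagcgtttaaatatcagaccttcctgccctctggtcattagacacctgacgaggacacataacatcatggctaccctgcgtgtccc
Fscn1 had 3 matches, Ccl22 had 2, and Il12b had none. The motif was found in 50.8% of 32851 promoters, so a match in these windows is common. A stricter motif, GGGA and TT and CC in this order with any 1 base before and after TT, in 1.2% of promoters, was in none of the 3.

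Summed over members, Ccr7 was higher in every Panc02-SIY library than in every MC38 library. The Panc02-SIY libraries were separated by treatment for Ccl22 and Cst3. Fscn1 (ENSMUSG00000029581, mm10 chr5:142960343-142973185) was at 3997, 2198, 4054 and 2114 CPM in NT Panc02-SIY libraries 1 to 4 and at 3740, 3342, 2640 and 2292 CPM after RT. Ccr7 (chr11:99144196-99155077) was at 3262, 3517, 4377 and 3870 CPM before and at 2725, 3301, 3613 and 3691 CPM after. The NT and RT libraries overlapped for both genes. All 64 Ccr7 UMIs of NT Panc02-SIY replicate 2 came from 1 of its 3 members. With the highest member of each library left out, Ccr7 was at 0 CPM there. It was then at 581 CPM in NT MC38 replicate 3 and 1771 CPM in RT MC38 replicate 4, so the tumor lines overlapped. Il12b (chr11:44400063-44414033) was at 693, 3132, 1119 and 1646 CPM in NT and at 124, 1677, 453 and 358 CPM in RT Panc02-SIY libraries. Ccl22 (chr8:94745590-94751699) was at 629, 879, 1094 and 629 CPM in NT and at 3567, 2803, 1573 and 2115 CPM in RT Panc02-SIY libraries. Every RT library was above every NT library for Ccl22. Cst3, encoding the protease inhibitor cystatin C, was at 20090, 32310, 21840 and 19440 CPM in NT and at 18720, 16290, 12500 and 17790 CPM in RT Panc02-SIY libraries, so that every RT library was below every NT library. Since both are gate genes this is a description of the gated cells. A single cell held a large part of the Ccl22 count, with 108 of 144, 352 of 473 and 206 of 431 Ccl22 UMIs coming from 1 member of RT libraries 1, 2 and 4. With the highest member of each library left out, NT libraries were at 456, 1112, 650 and 536 CPM and RT libraries at 1491, 833, 1403 and 1266 CPM, and the groups overlapped.

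**Figure D1:**
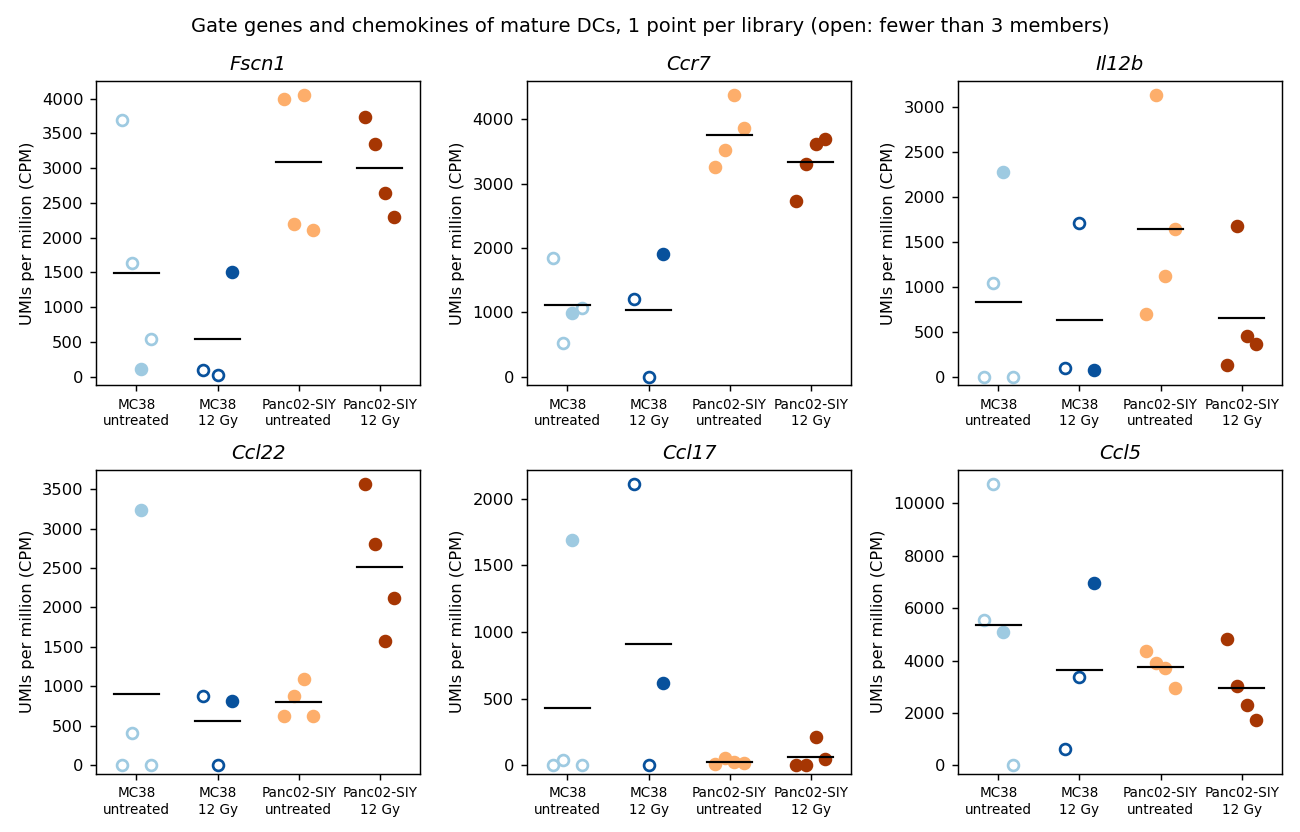
Level of 4 gate genes and of the chemokine genes Ccl17 and Ccl5 in mature DCs (CPM, linear axes) by tumor line and treatment. Each point is a library, open where it held fewer than 3 members, and bars are group means. Ccl22 lies between 629 and 1094 in untreated and between 1573 and 3567 in irradiated Panc02-SIY libraries.

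In MC38 the values rested on few cells, since NT libraries held 1, 2, 5 and 1 members and RT libraries held 2, 1, 0 and 6. Fscn1 was at 3690, 1637, 112 and 536 CPM in NT libraries and at 95.2, 25.5 and 1503 CPM in RT libraries 1, 2 and 4. Ccr7 was at 1845, 521, 996 and 1072 CPM in NT and at 1199, 0 and 1901 CPM in the same RT libraries. The RT library without any Ccr7 UMI had 1 member, a barcode over the C1q limit. Ccl17, the other CCR4 ligand gene (chr8:94810453-94812036), was at 0, 37.2, 1693 and 0 CPM in NT and at 2112, 0 and 620 CPM in RT MC38 libraries. In Panc02-SIY libraries Ccl17 did not pass 213 CPM. Of 183 Ccl17 UMIs in NT MC38 members, 181 came from 1 cell of replicate 3, which also held 339 of 358 Ccl22 UMIs, 209 Il12b UMIs and 13 Xcr1 and 9 Clec9a UMIs. That cell had 1 Fscn1 UMI.

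Members differed among themselves. Ccr7 was detected in 71 of 80, Ccl22 in 67, Il12b in 45, and all of these in 34. An Il12b UMI was found in 10 of 18 MC38 and 35 of 62 Panc02-SIY members, which the gate selected on, and in 0.76% and 0.16% of T cell barcodes. UMIs of Xcr1 or Clec9a, receptors of type 1 cDCs, were found in 12 members (3 from MC38), and the type 2 cDC lectin gene Cd209a in 1. Xcr1 had a UMI in 5 of 62 Panc02-SIY members and in 5.2% of their T cell barcodes, so a single Xcr1 UMI does not mark a type 1 cell. Il12b was concentrated in few cells. In Panc02-SIY, 5 members held 432 of 787 Il12b UMIs, and 15 of 62 had 10 or more. At the edge of the gate, 4 members had 1 Fscn1 UMI, 3 had a summed count of 2 for the migration and cytokine genes, and 3 had 5 to 9 Cst3 UMIs. Just outside, 64 barcodes met every condition but had no Fscn1 UMI, 4 had a summed count of 1, 1 had under 5 Cst3 UMIs, 18 had a Cd3d or Cd3e UMI and 3 had a Cd79a UMI. Among the 5% of barcodes per library with the highest Scrublet doublet scores were 2 members. One was a C1q-rich member of 20201 UMIs in RT MC38 replicate 1, and the other a member of 16560 UMIs in RT Panc02-SIY replicate 4 that held 53 S100a8 UMIs.

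Mature DCs were a small part of the CD45+ cells. They made up 0.935%, 0.18%, 0.22% and 0.315% of retained barcodes in NT Panc02-SIY libraries and 0.496%, 0.663%, 0.342% and 0.518% after RT. The means were 0.412% (SD 0.353, n = 4) and 0.505% (SD 0.131, n = 4), and the groups overlapped (exact permutation test, two-sided, adjusted p = 0.8). In MC38 the shares were 0.606%, 1.6%, 2.33% and 0.328% in NT and 2.67%, 0.826%, 0% and 1.64% in RT libraries. The 0 stands for 0 of 225 barcodes, which allows a share of up to 1.33% (3 counts of the total), and the upper end of its exact two-sided 95% interval is 1.63%. The MC38 means of 1.21% (SD 0.92) and 1.28% (SD 1.14) differed by less than the spread between libraries (exact permutation test, adjusted p = 0.943). MC38 against Panc02-SIY gave adjusted p = 0.629 in NT and in RT libraries, by the same exact test. The rule on shared strings kept 7.53% to 34.6% of the MC38 barcodes that passed the filter in a library. With every barcode kept, MC38 shares were 0.34%, 0.389%, 0.572% and 0.211% in NT libraries. In RT libraries they were 0.502%, 0.336%, 0% and 0.758%, and both MC38 means were then below those of Panc02-SIY. The difference of the radiation effect between tumors was -0.023 percentage points (exact p = 0.973 over 4900 permutations within tumor lines). With 4 against 4 libraries the smallest p the exact test can give is 0.0286, and 8 comparisons over 2 denominators were adjusted together.

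Relative to the other DCs, counted with type 1 and type 2 gates (at least 2 UMIs of Xcr1 and Clec9a together, or of Cd209a, with none of the other and no Fscn1 UMI), mature DCs made up 44.4%, 4.11%, 6.52% and 3.19% in NT and 26.7%, 18.5%, 10.9% and 4.36% in RT Panc02-SIY libraries. The largest Panc02-SIY share was in a library with 18 barcodes in the 3 gates. In MC38 libraries they made up 14.3%, 40%, 35.7% and 12.5% in NT and 66.7%, 25%, 0% and 50% in RT. The adjusted p-values of the exact permutation tests ran from 0.629 to 0.943. Of the 818 barcodes of the type 1 gate, 703 were over the C1q limit. Under that limit the shares were 44.4%, 16.7%, 9.52% and 19.6% in NT and 36.4%, 38.7%, 24.1% and 18.7% in RT Panc02-SIY libraries. After thinning to 2000 UMIs they were 43.75%, 5.0%, 27.8% and 18.6% in NT and 38.5%, 53.8%, 32.1% and 28.0% in RT. The groups overlapped under both settings.

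**Figure D2:**
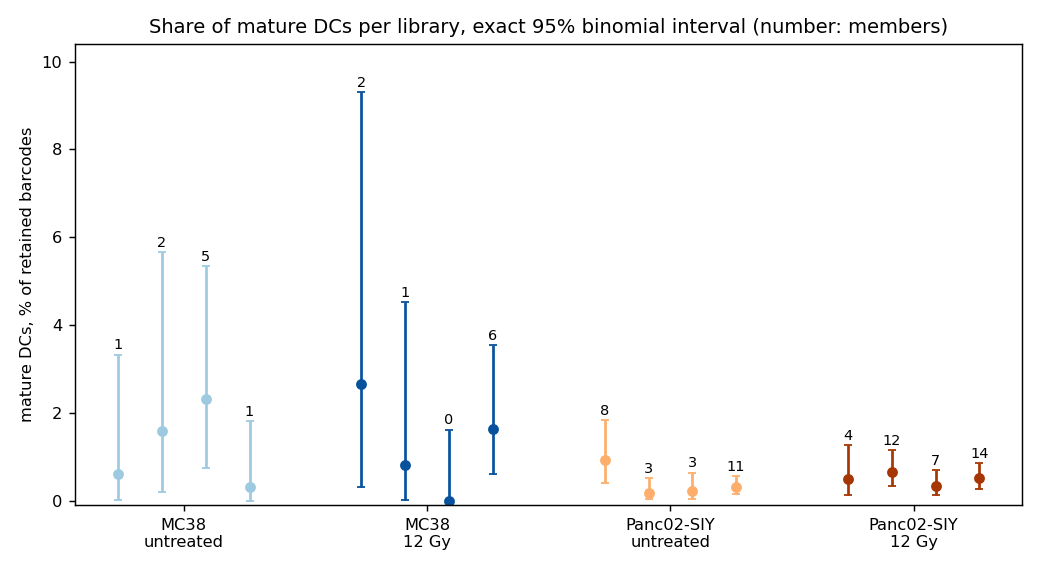
Share of mature DCs among retained CD45+ barcodes (percent) in each library, with the number of members above it. Bars are exact 95% binomial intervals, which cover counting error only. Irradiated and untreated libraries overlap in both tumor lines.

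To describe what sets mature DCs apart, their summed counts were compared with those of the type 1 and type 2 DC gates in the same libraries. Genes that go with the gate genes in single cells were selected with them, so these counts describe the gated cells and are no independent test. As gated, with 9 libraries, 3181 of 6306 genes (50.4%) were called against type 1 and 2655 (42.1%) against type 2 DCs, at an edgeR adjusted p below 0.1 and a fold above 1.3. Most barcodes of the type 1 gate carried C1q RNA, and the genes below are given under the C1q limit. This left 53 mature, 95 type 1 and 69 type 2 DCs in 6 Panc02-SIY libraries. There, 2599 of 5124 genes (50.7%) were called against type 1 and 2249 (43.9%) against type 2, and 792 were higher and 935 lower than in both.

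Of 41 measured genes of the maturation and migration list, 38 were higher and 1 lower than in type 1 DCs, and 36 were higher and 1 lower than in type 2 DCs. The median log2 fold change was 3.55 and 4.12, against -0.23 and -0.13 over all genes tested. Cacnb3, a calcium channel subunit gene (chr15:98630840-98644529), had a median of 742 CPM (484 to 1258 over 6 libraries) against 1.4 and 0 CPM in type 1 and type 2 DCs. Its log2 fold change was 8.07 (SE 0.40) and 8.23 (SE 0.47). Socs2, a suppressor of cytokine signaling, had a median of 948 CPM (165 to 1258) against 4.32 and 0. Cd200, which encodes an inhibitory ligand of myeloid cells, had a median of 550 CPM (309 to 759) against 8.04 and 0. Il4i1, which encodes an amino acid oxidase, had a median of 465 CPM (220 to 800) against 0 and 0. For these 4 genes the lowest mature DC library was above the highest library of either other gate. Ccl5, encoding a chemokine that attracts T cells, had a median of 3183 CPM (1718 to 4349) against 38 and 45.4, with a log2 fold change of 6.51 (SE 0.42) and 5.47 (SE 0.41). Of 19 cytokine and chemokine genes, gate genes included, 8 were higher and 4 lower than in type 1 and 5 higher and 6 lower than in type 2 DCs. Cxcl9, encoding a ligand of the T cell receptor CXCR3, was among the lower ones, with a median of 24.5 CPM against 1041 and 1206. Of 8 chemokine receptor genes, Ccr7 among them, 3 were higher and 3 lower than in type 1 and 2 higher and 4 lower than in type 2 DCs.

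Most NF-kB genes were higher in mature DCs. Against type 1 DCs 19 of 23 were higher and none lower, and against type 2 DCs 14 were higher and 2 lower. Over all 5124 genes, 50.7% were called against type 1 and 43.9% against type 2 DCs. Relb had a median of 423 CPM (333 to 672) against 22.4 and 48.5 in type 1 and type 2 DCs. Nfkb2, which encodes the partner of RelB, had a median of 277 CPM (213 to 352) against 41.3 and 50.4, and Traf1, a TNF receptor adaptor gene, 1028 CPM (769 to 1183) against 116 and 261. Of the survival and apoptosis list, 12 of 18 were higher than in type 1 and 9 higher than in type 2 DCs, with 2 lower in each. Among them Bcl2l14 varied widely between mature DC libraries, from 128 to 1813 CPM, and had a median of 345 CPM against 10.9 and 0.

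The costimulatory and checkpoint genes did not move as a block, with 10 of 16 higher and 5 lower than in type 1 and 7 higher and 4 lower than in type 2 DCs. The called share over all genes was 50.7% against type 1 and 43.9% against type 2 DCs. Cd274, encoding PD-L1, had a median of 871 CPM (539 to 1319) against 115 and 141 CPM. Pdcd1lg2, encoding PD-L2, had a median of 121 CPM against 12.7 and 17.5. Cd40 had a median of 203 CPM against 27.3 and 81.4, and Cd80 had 286 CPM against 32.1 and 74.7. Each of these 4 genes was called higher than in both gates. Cd83, a surface marker of mature DCs, had a median of 841 CPM against 255 and 400. Cd70, the ligand of CD27, had 61 UMIs in mature DCs and none in the others, at least 65.1-fold higher than in type 1 and at least 25.0-fold higher than in type 2 DCs (against a floor of 3 UMIs over the whole gate).

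Class I and class II antigen presentation genes went in opposite directions. Among all genes, 50.7% were called against type 1 and 43.9% against type 2 DCs. Of 22 class I genes 12 were higher and 3 lower than in type 1, and 14 higher and 1 lower than in type 2 DCs. H2-K1, a class I heavy chain gene, had a median of 3253 CPM (2906 to 3627) against 1318 and 1181, and B2m, the class I light chain, 4702 CPM against 2065 and 2437. Psme2, a proteasome activator subunit, had 1745 CPM against 640 and 560. Of 15 class II genes, 11 were lower and 2 higher than in type 1, and 10 lower and 2 higher than in type 2 DCs. Cd74, the invariant chain, had a median of 5100 CPM (3929 to 6785) against 13637 and 15054. H2-Ab1 had 842 CPM (275 to 2880) against 5991 and 4622, and Ciita, the master regulator of class II genes, 35.6 CPM against 338 and 397. The class II genes higher than in both gates were H2-Eb2 and the protease gene Lgmn.

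Most identity genes of the compared subset were lower in mature DCs. Naaa, an enzyme gene of type 1 cDCs, had 3 UMIs over 53 mature DCs, a median of 0 CPM against 1388 in type 1 and 420 in type 2 DCs. Of 19 type 1 identity genes 15 were lower and none higher than in type 1 DCs, and of 14 type 2 identity genes 12 were lower and none higher than in type 2 DCs. Called in either direction over all genes were 50.7% against type 1 and 43.9% against type 2 DCs. Clec10a, a type 2 DC lectin gene, had no UMI in mature DCs and was at least 76.3-fold lower than in type 2 DCs. The transcription factors Irf8 and Batf3 were among the type 1 identity genes not called lower than in type 1 DCs. Irf8 had a median of 1403 CPM against 1833 in type 1 (log2 fold change -0.36, SE 0.33, adjusted p = 0.409) and 398 in type 2 DCs, and Batf3 had 284 CPM against 235 (adjusted p = 0.337) and 80. The gate removed no barcode for carrying Xcr1, Clec9a or Cd209a, but the comparison gates were set on these genes. Their lower level than in the gate set on them follows from that choice. It is no test, also where these genes count among the identity genes.

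Among all genes, those with the largest smaller fold over both gates were Tmem150c, Slco5a1, Cd70, Scin, Cacnb3, Mreg, Npr1 and Nudt17 and the noncoding genes Gm13546 and Gm47662. Scin, encoding the actin-severing protein scinderin, had 195 UMIs (median 373 CPM, 101 to 440) against 1 UMI in type 1 and none in type 2 DCs. Mreg, encoding melanoregulin, had a median of 271 CPM against 0 and 0. Tmem150c and Slco5a1, each with 91 UMIs, had none in the other gates. Each was at least 97.1-fold higher than in type 1 and at least 37.2-fold higher than in type 2 DCs. Gm13546 is annotated as antisense, and whether the counting used strand is not given in the sources used here. At the other end Ccr2, Mef2c, March1, Cfp and Fcgr2b had no UMI in 668939 mature DC UMIs. Ccr2, the receptor for monocyte chemokines, was at 116 CPM (median) in type 1 and 697 CPM in type 2 DCs, at least 26.6-fold and 160-fold higher than in mature DCs. March1, which encodes a ubiquitin ligase of MHC class II, was at 153 and 96.2 CPM in the other gates.

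Most dissociation and stress genes were lower in mature DCs than in either other gate, while cell cycle and interferon-stimulated genes differed by gate. Over all 5124 genes, 1545 were lower and 1054 higher than in type 1 DCs (50.7% called), and 1247 were lower and 1002 higher than in type 2 DCs (43.9%). Of 16 cell cycle genes 14 were lower and none higher than in type 1 DCs, while against type 2 DCs 2 were higher and 1 lower. Mki67 had a median of 2.96 CPM against 81.6 in type 1 and 1.18 in type 2 DCs. Of 50 interferon-stimulated genes 33 were lower and 2 higher than in type 2 DCs, and 14 were lower and 7 higher than in type 1 DCs, a smaller share than over all genes. Of 14 dissociation and stress genes, 13 were lower than in type 2 and 10 lower and 1 higher than in type 1 DCs. Fos, an immediate early gene, had a median of 137 CPM against 1722 and 1629. Of 18 p53 targets 6 were higher and 4 lower than in type 1, and 9 higher and 2 lower than in type 2 DCs. Of 17 macrophage and monocyte genes none was higher, and 9 and 11 were lower than in type 1 and type 2 DCs.

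**Figure D3:**
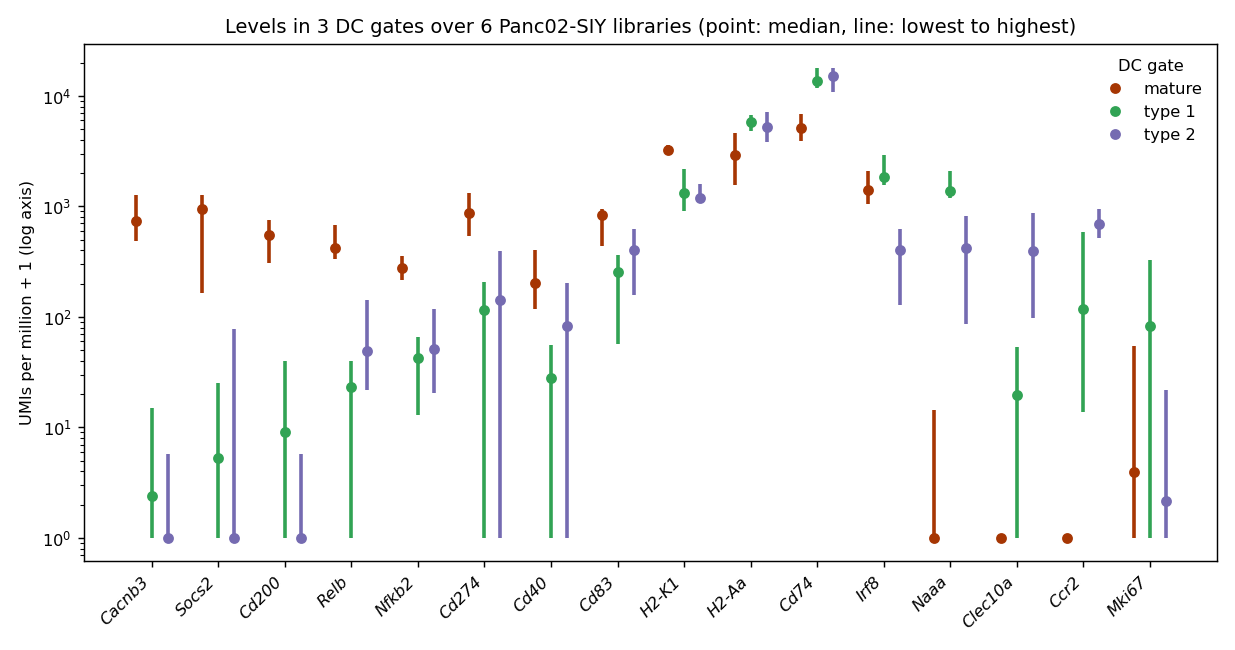
Level of 16 genes in mature, type 1 and type 2 DCs over 6 Panc02-SIY libraries under the C1q limit (CPM plus 1, log axis). Points are medians, and lines run from the lowest to the highest library. Cacnb3, Socs2 and Cd200 are separated from both other gates, Cd74 is lowest in mature DCs, and Irf8 overlaps type 1 DCs.

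**Figure D4:**
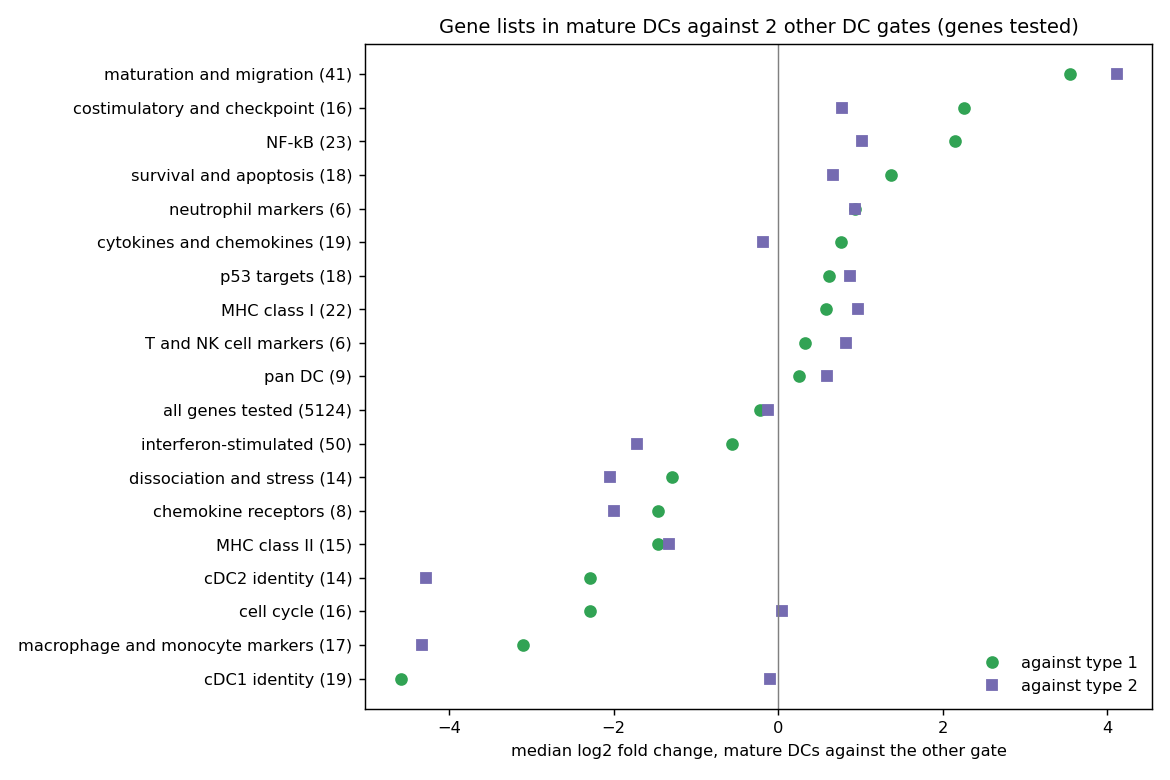
Median log2 fold change of each gene list (number of genes tested) in mature DCs against type 1 and type 2 DCs under the C1q limit. Maturation and migration genes have medians of 3.55 and 4.12, and identity genes of the compared subset of -4.59 and -4.28. The type 1 and type 2 gates were themselves set on Xcr1 and Clec9a or on Cd209a.

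Of 5658 genes tested in mature DCs of 4 RT against 4 NT Panc02-SIY libraries, 33 were called (0.583%), 26 higher and 7 lower (24 and 12 with RLE scaling). With 62 members in these 8 libraries, a gene that was not called is not shown to be unchanged. Libraries with at least 3 members of all 4 groups entered 1 fit, in which each MC38 group was a single library. The number of calls was 0 when the shallow MC38 libraries were added to this fit and 2 with the Panc02-SIY libraries alone, Ifitm3 and the gate gene Ccl22, whose call is no test because its UMIs chose the cells. It was 4 with DESeq2 and 3 under the C1q limit.

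The interferon-inducible membrane genes Ifitm3 and Ifitm1 rose. Ifitm3 (chr7:141009586-141010770), which encodes a protein that restricts virus entry, was at 64, 55, 199 and 168 CPM in NT and at 570, 569, 547 and 511 CPM in RT libraries. Every RT library was above the NT libraries (log2 fold change 2.204, SE 0.41, adjusted p = 0.000102). A single member held 18 of 23 Ifitm3 UMIs in RT replicate 1 and 30 of 41 in RT replicate 3. With the highest member of each library left out, NT libraries were at 37.4, 0, 43.3 and 101 CPM and RT libraries at 189, 572, 175 and 445 CPM, without overlap. The median over members was 0, 0, 155 and 0 CPM in NT and 154, 601, 81.4 and 374 CPM in RT libraries, which overlapped. Ifitm3 was called under 19 of 22 other settings. Ifitm1 (chr7:140967221-140969825) was at 43, 55, 25 and 0 CPM in NT and at 570, 89, 1306 and 496 CPM in RT libraries. The groups did not overlap, but the RT libraries varied by over an order of magnitude (log2 fold change 4.74, SE 0.56, adjusted p = 6.79e-13), and the call held under 14 of 22 other settings but was lost without NT replicate 2 (adjusted p = 0.682). Of 51 interferon-stimulated genes 2 were called, Ifitm3 and Isg15, both higher. In all 42 of 51 had a positive fold change, with a median of 0.59 against 0.12 over all genes, of which 3277 of 5658 were positive. Isg15 was at 107, 0, 274 and 381 CPM in NT and at 248, 622, 387 and 1016 CPM in RT libraries, which overlapped. Its call held under 10 of 22 other settings, and without each library in turn its log2 fold change ran from 1.06 to 2.34.

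Of 21 measured targets of p53, the transcription factor activated by DNA damage, 2 rose, Cdkn1a and Phlda3. Cdkn1a (chr17:29090976-29100727), which encodes the cell cycle inhibitor p21, was at 554, 220, 174 and 527 CPM in NT and at 1016, 759, 1120 and 1546 CPM in RT libraries. Every RT library was above every NT library (log2 fold change 1.58, SE 0.36, adjusted p = 0.00734). The call held under 12 of 22 other settings and was lost without NT replicate 2 or 3 (adjusted p = 0.224 and 0.116) or without RT replicate 4 (adjusted p = 0.247), and DESeq2 gave adjusted p = 0.296. The median over single members per library was 531, 0, 180 and 463 CPM in NT and 749, 522, 651 and 1365 CPM in RT libraries. Phlda3 (chr1:135766119-135769136), a p53-induced inhibitor of AKT signaling, had no UMI in 288897 NT UMIs and 24 in 487868 RT UMIs, at least 4.74-fold higher. It was at 25, 47, 27 and 64 CPM in RT libraries (adjusted p = 0.0399), and the call held under 7 of 20 settings. In all, 19 of the 21 targets had a positive fold change, with a median of 0.93 against 0.12 over all genes. With RLE scaling these medians were 0.866 and 0.015. Of all genes tested, 33 of 5658 (0.583%) were called. Ccng1, encoding cyclin G1, was at a mean of 42.6 CPM (SD 16.7) in NT and 148 CPM (SD 60.4) in RT libraries, without overlap but not called (adjusted p = 0.209). Mdm2, encoding the ligase that degrades p53, was at 43.7 CPM (SD 55.1) and 104 CPM (SD 58.3) (adjusted p = 0.664).

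**Figure D5:**
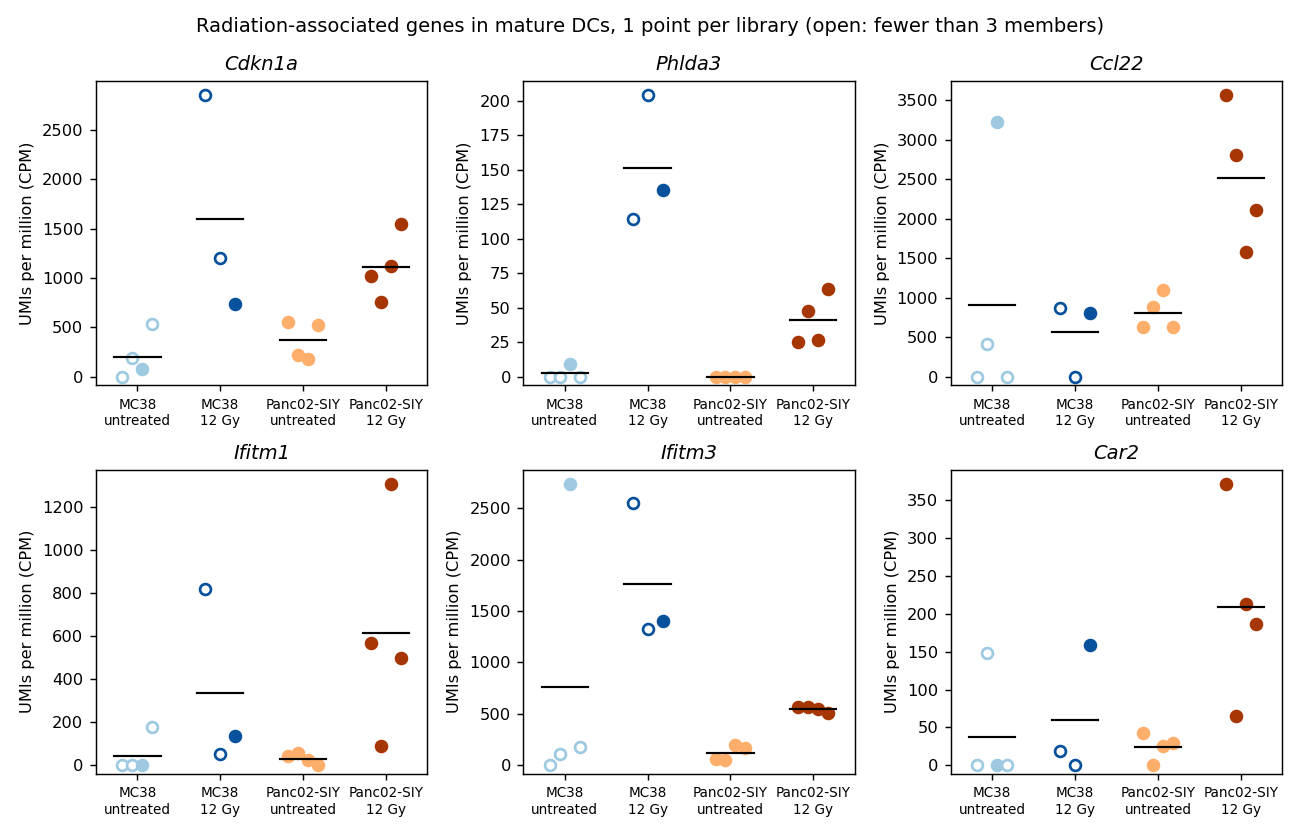
Level of Cdkn1a, Phlda3, Ccl22, Ifitm1, Ifitm3 and Car2 in mature DCs (CPM, linear axes). Each point is a library, open where it held fewer than 3 members, and bars are group means. In Panc02-SIY each gene is higher in every irradiated than in every untreated library.

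Other genes without overlap between NT and RT Panc02-SIY libraries were Car2, Nrg1 and Exoc4. Car2 (chr3:14886273-14900770), encoding carbonic anhydrase 2, was at 43, 0, 25 and 29 CPM in NT and at 372, 65, 213 and 187 CPM in RT libraries (log2 fold change 2.64, SE 0.58, adjusted p = 0.00416). It was called under 16 of 22 settings. Nrg1, encoding neuregulin 1, had 1 UMI in NT and 25 in RT libraries, and Exoc4, an exocyst subunit gene, had 7 and 50. Nrg1 had adjusted p = 0.089 and was called under 4 of 18 other settings, and Exoc4 had adjusted p = 0.0973 and was called under 2 of 22. H2-Ab1 was the only class II gene called of 13 tested, at 299, 275, 497 and 1215 CPM in NT and at 1412, 587, 2880 and 1423 CPM in RT libraries. The H2-Ab1 libraries overlapped (log2 fold change 1.40, SE 0.34, adjusted p = 0.0204), and without RT replicate 3 the adjusted p was 0.467.

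No costimulatory gene passed the test in Panc02-SIY (0 of 16), and none of the 41 maturation and migration genes did. Over all genes 33 of 5658 (0.583%) were called, so a count of 0 in lists of this size is near that share. Cd80 was at a mean of 226 CPM (SD 92.2) in NT and 350 CPM (SD 119) in RT libraries (log2 fold change 0.74, SE 0.40, adjusted p = 0.977). Cd86 was at 220 CPM (SD 113) and 321 CPM (SD 158), a log2 change of 0.44 (SE 0.40), and Cd40 at 198 CPM (SD 95.6) and 208 CPM (SD 120), a log2 change of 0.25 (SE 0.41). That these genes missed the threshold does not show that they were unchanged. Ccl5 was at 3738 CPM (SD 574) in NT and 2960 CPM (SD 1341) in RT libraries (log2 fold change -0.17, SE 0.31).

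Some of the 33 calls rested on single cells. In RT replicate 4, 1 member of 16560 UMIs held 53 S100a8, 38 S100a9, 34 Acod1, 36 Cxcl2 and 32 Egr1 UMIs, besides 20 Fscn1 and 8 Ccr7 UMIs. It was the member of this library among the top 5% of doublet scores, and whether it was a doublet was not tested. With the top scores left out 25 genes were called, and Acod1, Cxcl2 and Egr1 were not (edgeR adjusted p = 1 for each). S100a8 and S100a9 encode the calprotectin subunits of neutrophils and monocytes. All 57 S100a8 UMIs of RT libraries but 4 came from it. Another member of the same library held 38 of 39 Hspa1b UMIs, a heat shock gene. These 6 genes were 6 of the 26 higher calls, and all 12 neutrophil markers had a UMI in that library, with a summed level of 1394 CPM against at most 133 CPM in the other Panc02-SIY libraries. The falls of C1qa and C1qc likewise came from NT members over the C1q limit. C1qa was at 11, 55, 448 and 593 CPM in NT and at 0, 0, 0 and 9.8 CPM in RT libraries, and 1 member each held 17 of 18 C1qa UMIs of NT replicate 3 and 67 of 81 of NT replicate 4. Without RT replicate 4 the number of calls was 14, without NT replicate 2 it was 4, without NT replicate 3 it was 11 and without RT replicate 1 it was 17.

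In MC38 tumors 2 of 3525 genes were called after radiation (0.0567%), Cdkn1a and Socs3, both higher, over 4 NT and 3 RT libraries. A single library per group had 3 or more members, so every library with a member was used. Cdkn1a was at 0, 186, 74 and 536 CPM in NT libraries and at 2855, 1198 and 740 CPM in RT libraries 1, 2 and 4. The groups did not overlap (log2 fold change 3.78, SE 0.72, adjusted p = 0.0117). All 9 RT members had a Cdkn1a UMI, with a median of 20 UMIs at a median depth of 20460 UMIs, and 6 of 9 NT members did, with a median of 2 at a depth of 8526. The shallowest NT member had 1084 UMIs and the shallowest RT member 15561, so these shares and medians were not compared at equal depth. With the C1q-rich members left out, NT libraries were at 0, 186, 105 and 536 CPM and RT libraries 1 and 4 at 3339 and 740 CPM. With every barcode kept in each library where it occurs, NT replicate 1 was at 2703 CPM, the groups overlapped and the call was lost (adjusted p = 0.666). It was also lost without RT replicate 1 (adjusted p = 0.237) and with RLE scaling (adjusted p = 0.15).

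Phlda3 had 1 UMI in NT and 31 in RT MC38 members, at 0, 0, 9.3 and 0 CPM against 114, 204 and 135 CPM. The groups did not overlap, but the difference was not called (adjusted p = 0.159). Of 16 p53 targets 14 had a positive fold change, with a median of 1.57, against 2041 of 3525 and a median of 0.15 over all genes. RLE scaling moved the median of all genes by -0.41 and that of the p53 targets to 1.16. Socs3, which restrains STAT3 signaling, was at 0, 74, 121 and 179 CPM in NT and at 1028, 1785 and 143 CPM in RT libraries, which overlapped. Both high RT libraries held a C1q-rich member, and under the C1q limit the log2 fold change of Socs3 fell from 3.43 to 0.77 (adjusted p = 0.828). Of 13 class II genes none was called, with 11 positive and a median of 2.195, and macrophage and monocyte markers had 16 of 18 positive and a median of 1.07. The summed macrophage and monocyte markers were at 2768, 1414, 22369 and 1965 CPM in NT and at 25540, 43885 and 1352 CPM in RT libraries, led by Apoe, and their part in the class II values was not tested. The dissociation and stress list summed to 922.5, 2939, 5918 and 2679.5 CPM in NT MC38 libraries, against 3352 to 4734 CPM in NT Panc02-SIY libraries. In RT MC38 libraries 1, 2 and 4 it was at 9344, 15631 and 5210 CPM, which overlapped NT, and its part was not tested.

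The number of MC38 calls depended on single libraries, being 124 without NT replicate 3, 29 without RT replicate 2 and 59 without RT replicate 4. It was 50 under the C1q limit and 39 with a stricter gate. A test of the difference in the radiation effect between tumor lines called none of 3525 genes (0%). In edgeR 157 had an unadjusted p below 0.05, and DESeq2 also called none, with 101. For Cdkn1a the effect was larger in MC38 by 2.19 on the log2 scale (SE 0.90, unadjusted p = 0.0186, adjusted p = 0.9999).

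Between tumor lines, MC38 was represented by 1 library of 5 NT members and by 1 library of 6 RT members, each against 4 Panc02-SIY libraries and assumed to vary like them. The spread between MC38 libraries was thus not measured. Calls and adjusted p-values of these comparisons describe 1 MC38 library per treatment and are no test of the tumor lines. Of 5658 genes 361 were called in NT (6.38%), 263 higher in MC38 and 98 lower. The count was 38 with the NT and RT MC38 libraries of fewer than 3 members added, 59 with every barcode kept and 108 with DESeq2. The monocyte chemokine genes Ccl12 and Ccl2 were at 1954 and 847 CPM in the NT MC38 library and had no UMI in 4 NT Panc02-SIY libraries, at least 188-fold and 81.5-fold higher. Pf4, Ccl7 and Ifit3 also had no UMI there. Of 20 macrophage and monocyte markers 14 were higher in MC38, and 1 of the 5 MC38 members held 323 of 329 C1qa UMIs. Leaving out that member lowered Apoe from 6206 to 285 CPM and Lyz2 from 3192 to 165 CPM in this library, and left 171 calls. Il4i1 was then still called lower, while Ifit3 was not called (adjusted p = 1). Ccl17 was still called higher as well (log2 fold change 7.22), but another member, with 1 Fscn1 UMI, held 181 of the 182 Ccl17 UMIs of this library. With a gate of at least 2 Fscn1 UMIs and 4 UMIs of the migration and cytokine genes, Ccl17 was not called (log2 fold change 0.09, edgeR adjusted p = 0.994). Il4i1 had no UMI in the MC38 library and was at 437, 220, 597 and 432 CPM in NT Panc02-SIY libraries, at least 15.9-fold lower. That bound rests on 1 library, and NT MC38 replicates 1, 2 and 4 held 1, 2 and 1 Il4i1 UMIs (922.5, 74.4 and 179 CPM).

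Of 41 maturation and migration genes 13 were lower and 1, Ccl17, higher in the NT MC38 library, with a median log2 fold change of -1.47 against 0.03 over all genes. The C1q-rich member and the member with 1 Fscn1 UMI held 78.9% of this library's UMIs. Under the C1q limit 8 of the 41 genes were lower and 2 higher (median -1.08 against -0.09), and with the gate of at least 2 Fscn1 UMIs 11 were lower and 1 higher (median -1.64 against -0.11). Cd200 was at 65.1 CPM against 309 to 1467 CPM and Socs2 at 130 CPM against 165 to 1258 CPM in NT Panc02-SIY libraries. All 14 Socs2 UMIs and 6 of 7 Cd200 UMIs came from the other 3 members, whose levels were 617 and 264 CPM, so that Socs2 was then inside the Panc02-SIY range. In the NT MC38 libraries of 1 or 2 members, which did not enter this fit, Cd200 was at 0, 186 and 0 CPM and Socs2 at 0, 856 and 357 CPM (replicates 1, 2 and 4), so Socs2 overlapped the Panc02-SIY range. Adora2a, encoding an adenosine receptor, B3gnt5, Gclc and Nsmce1 had no UMI in NT MC38 replicate 3 and 33 to 45 UMIs over the NT Panc02-SIY libraries. Of 51 interferon-stimulated genes 29 were higher and none lower in this library, where the C1q-rich member held 134 of 150 Isg15 and 222 of 294 Ifitm3 UMIs. The summed level of these genes was 21373 CPM there, against 3690, 3423 and 5716 CPM in NT MC38 replicates 1, 2 and 4 and 2528 to 5670 CPM in NT Panc02-SIY libraries, so the count describes 1 library. Under the C1q limit 4 of 48 interferon-stimulated genes were higher and 2 lower. Of 13 class II genes 7 were higher and none lower, among them H2-Ab1 (3936 CPM against 275 to 1215) and H2-Eb1 (4531 CPM against 721 to 2473). The member with 1 Fscn1 UMI held 394 of the 423 H2-Ab1 UMIs. H2-Ab1 was at 922.5, 112 and 3573 CPM in NT MC38 replicates 1, 2 and 4, and the summed class II level was 8303, 5506 and 21436 CPM there, 29069 CPM in replicate 3 and 7660 to 15332 CPM in NT Panc02-SIY libraries. With the C1q-rich member left out H2-Ab1 was not called (adjusted p = 0.205), and with the gate of at least 2 Fscn1 UMIs its log2 fold change was -0.49 (edgeR adjusted p = 0.879). RLE scaling moved the median of all genes by 0.12. The gene AY036118 was higher in MC38 under each of 18 other settings. Its log2 fold change was 4.27 to 5.41 between untreated and 3.68 to 4.71 between irradiated tumors, and its cause was not tested. Without each Panc02-SIY library in turn 325 to 400 genes were called.

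In RT tumors 31 of 5658 genes were called (0.548%), 29 higher in MC38 and 2 lower (49 and 11 with RLE scaling). The summed class II level was 36356 CPM in the MC38 library, replicate 4, against 10223 to 18930 CPM in RT Panc02-SIY libraries. RT MC38 replicates 1 and 2, which did not enter this fit and each held a C1q-rich member, were at 59890 and 74689 CPM. H2-Eb1 was at 7182 CPM in MC38 against 2576, 1529, 2693 and 2464 CPM (log2 fold change 1.81, SE 0.44, adjusted p = 0.018), and H2-Ab1 at 4589 CPM against 587 to 2880 CPM (adjusted p = 0.0488). The H2-Ab1 call held under 5 of 18 other settings. Interferon-stimulated genes summed to 9791 CPM in this MC38 library against 4333 to 7132 CPM in RT Panc02-SIY libraries. RT MC38 replicates 1 and 2 were at 13493 and 13209 CPM. With RLE scaling the median log2 fold change of 51 such genes was 1.31, against 0.03 over all genes. Ccl17 was at 620 CPM against 0, 0, 213 and 49.1 CPM, with 64 of its 78 MC38 UMIs in 1 cell. Fcgr1, an Fc receptor gene of macrophages, had 7 UMIs in MC38 and none in Panc02-SIY, at least 9.05-fold higher, Ccl12 had 5 UMIs against none, Clec12a had 11 against 1 and Ccl2 had 9 against 1. None of the 6 MC38 members of this library was over the C1q limit, although 20 of 22 macrophage and monocyte markers had a UMI, at a summed 1352 CPM against 149 to 462 CPM in Panc02-SIY. The lower genes were Mir155hg, the host of miR-155, at 1 against 96 UMIs (adjusted p = 0.064), and Bcl2l14, at 47.7 CPM against 267 to 520 CPM (adjusted p = 0.0855). With DESeq2 2 genes were called, and 275 were called when the MC38 libraries with fewer than 3 members were added.

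The neutrophil list also differed between MC38 libraries. It summed to 0, 112, 316 and 0 CPM in NT and to 3787, 1020 and 39.8 CPM in RT libraries 1, 2 and 4, led by Cxcl2 at 3349 CPM in RT replicate 1 and by Acod1 at 943.5 CPM in RT replicate 2. The plasmacytoid DC list summed to 1177 CPM over MC38 and 310 CPM over Panc02-SIY members, led by the interferon-inducible gene Bst2, and reached 2142 CPM in RT MC38 replicate 2. The Langerhans cell gene Cd207 and the plasmacytoid DC gene Siglech had no UMI in any library, and Cd3d, Cd3e and Cd79a were at 0 by the gate. B cell markers summed to at most 102 CPM and tumor and stroma markers to at most 93 CPM in a library. The T and NK cell list was led by Ccl5 except in NT MC38 replicate 4, where Klrd1 made up 536 of 893 CPM. In RT MC38 replicate 1 Ccl5 made up 609 of 1123 CPM. Of 3289 CPM for this list over all Panc02-SIY members, 2911 CPM were Ccl5. The part of these lists in the results was not tested.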

How the data were processed

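16 libraries of CD45+ tumor cells were profiled with the 10x 3′ kit of v3.0 chemistry. The authors aligned reads to mm10 with Cell Ranger (version 3.1.0 in the submitters' processing notes, after bcl2fastq 2.20.0), and the deposited matrices hold UMI counts of 31053 features per cell barcode, with no normalization. Each library's matrix was gated as described above with scipy 1.17.1 and pandas 2.3.3 in Python 3.11.15, and counts of the gated barcodes were summed per library.

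Sums were tested with the edgeR 4.0.16 quasi-likelihood test (limma 3.58.1, R 4.3.3, TMM scaling, filterByExpr with a minimum count of 3 and total of 15, or 5 between gates with library as a block). P-values were Benjamini-Hochberg adjusted over all genes tested, and a gene was called at adjusted p below 0.1 and a fold above 1.3. A minimum of 3 members per library was planned. It left 1 MC38 library per group, so the radiation effect in MC38 and its difference between tumors used every library with a member instead. A log2 fold change carries its SE. The alternatives included DESeq2 1.42.0, RLE scaling, other gates and filters, Scrublet (scanpy 1.11.5) with its top 5% of scores removed, thinning and leaving out each library. For the shares, each barcode was thinned to 2000 UMIs. In the gene tests, each sum was thinned to the lowest mean UMIs per barcode among the sums in the fit. Doublets were otherwise not removed.

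Gene positions are those of GENCODE M21. Intervals and limits set by a count of 0 cover counting error only. The code was tested on simulated counts. The rule for naming genes took the gate genes, the genes of fixed lists, and per comparison the 5 largest called rises and 5 largest called falls whose libraries did not overlap (between gates, 10 higher and 5 lower than in both). It left out Gm, Rik, mitochondrial and ribosomal protein genes between groups. Genes the text takes from the lists, AY036118, and single cells it describes, were chosen after their values were seen. The members and lists were chosen with earlier results of these data known. A gene that this rule names in the comparison of irradiated tumors is not reported here.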

Additional observations from a re-analysis of the deposited data

Results flagged for a closer look

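Of 50 groups of 4 libraries or more whose highest or lowest value was compared with the rest, 11 had a value far from the others by Dixon's criterion. Chance flags about 1 in 20 groups of independent, evenly spread values. That rate does not hold here, since many of these genes were chosen after their values were seen and 4 of the 11 flags arose because every other library of the group had no UMI.

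Mature DCs were 44.4% of the barcodes in the 3 DC gates in NT Panc02-SIY replicate 1, far above the other NT libraries. In RT Panc02-SIY replicate 4, S100a8 at 260 CPM, S100a9 at 191 CPM, Acod1 at 167 CPM, Egr1 at 187 CPM and Hspa1b at 187 CPM were each far above the other RT libraries. All but Hspa1b came mostly from 1 cell of that library, and Hspa1b from another. C1qa in the same library, at 9.82 CPM, stood apart because the other RT libraries had no UMI, and it rested on 2 UMIs.

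The other 4 values rested on 1 UMI each in libraries whose neighbors were at or near 0. These were Nrg1 and S100a8 at 10.7 CPM in NT Panc02-SIY replicate 1, and S100a9 and Egr1 at 55 CPM in NT Panc02-SIY replicate 2.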

How the results depend on the processing

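The number of genes called changed with many of the settings. For radiation in MC38 (2 calls) it was 19 with DESeq2, 0 with RLE scaling, 18 without the filter on low counts, 1 with every barcode kept, 0 without the barcode filter, 1 without top doublet scores, 39 with the stricter gate, 50 under the C1q limit, 0 after thinning, 1 with the groups compared alone, and 1 to 124 without each library. For radiation in Panc02-SIY (33) it was 4 with DESeq2, 0 with all libraries, 0 with libraries of at least 5 members, 0 with every barcode kept, 3 with the stricter gate, 3 under the C1q limit, 4 after thinning, 2 with the groups compared alone, and 4 to 44 without each library. For the untreated tumors (361) it was 108 with DESeq2, 38 with all libraries, 59 with every barcode kept, 171 under the C1q limit, 129 after thinning, and 325 to 400 without each library. For the irradiated tumors (31) it was 2 with DESeq2, 60 with RLE scaling, 275 with all libraries, 4 with libraries of at least 5 members, 367 with every barcode kept, 17 with the stricter gate, 5 after thinning, and 17 to 28 without each library. For the difference of the radiation effect (0) it was 5 without the filter, 1 with the stricter gate, 3 under the C1q limit, and 0 to 25 without each library. Against type 1 DCs (3181) it was 1900 after thinning and 2666 to 3311 without each library, and against type 2 DCs (2655) 1638 and 2180 to 2775. RLE scaling split the calls into 24 higher and 12 lower for radiation in Panc02-SIY (26 and 7 with TMM) and into 49 and 11 for the irradiated tumors (29 and 2). It moved the median of all genes by -0.10 and 0.04 there, by -0.41 for radiation in MC38 and by -0.27 for the difference of the effect. The causes were not tested.

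Between NT and RT Panc02-SIY libraries of the same number, gene deviations from group means correlated at 0.03, 0.00, -0.02 and 0.07 (replicates 1 to 4). These sums held 3 to 14 members, so low correlations do not show that the libraries are unpaired. Retained barcodes were lowest in replicate 1 and highest in replicate 4 of both groups (856 and 3497 in NT, 806 and 2704 in RT). What the replicate numbers stand for was not tested. With the replicate number as a block, 13 genes were called for radiation in MC38, 18 in Panc02-SIY, 160 between untreated and 6 between irradiated tumors.

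The difference in mean share of retained barcodes changed sign in MC38 after radiation without the barcode filter (-0.117 percentage points), without top doublet scores (-0.278), with the stricter gate (-0.203) and under the C1q limit (-0.354). It also changed sign between untreated (-0.041) and irradiated tumors (-0.098) with every barcode kept, and after thinning (-0.051 and -0.274). Of the 3 gates, the MC38 difference became -9.72 after thinning and -10.0 under the C1q limit, and that between irradiated tumors -10.3 and -3.33. Without each library the differences in retained share ran from -0.392 to 0.497 (MC38 radiation), 0.015 to 0.266 (Panc02-SIY radiation), 0.432 to 1.10 (untreated tumors) and 0.319 to 1.21 (irradiated tumors). In the share of the 3 gates they ran from -0.625 to 21.6, -3.31 to 10.5, 6.27 to 21.02 and 9.89 to 32.1 in that order. The lowest adjusted p over these settings was 0.229 by the exact test. Among named genes, the sign turned for Cxcl2 after radiation in Panc02-SIY with every barcode kept (-0.46), H2-Ab1 between untreated tumors with the stricter gate (-0.49) and Ccl2 between irradiated tumors after thinning (-1.37). Of the other values for named genes, 434 kept their direction and call and 325 lost the call. Libraries of at least 5 members left 1 MC38 library per group, so that setting was not run for radiation in MC38 or the difference of the effect. The members' summed counts ran from 1084 to 203739 UMIs per library, which limits what the shallow MC38 libraries can show. The comparison of gates within MC38 alone was not run, since 1 library qualified.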
